A study of Mus musculus with 18 samples.

Results

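The regions described here lay in 3 intervals of the mouse genome (mm9) that hold large clusters of olfactory receptor genes: chr2:85300000-89900000 (4.6 Mb), chr7:109800000-115800000 (6 Mb) and chr9:37800000-39800000 (2 Mb). Overlapping ATAC-seq peaks of all 18 libraries were merged into 377189 regions, and the 1424 regions in these intervals were kept by position alone, 388 on chromosome 2, 863 on chromosome 7 and 173 on chromosome 9. In ATAC-seq a transposase cuts and tags DNA where it is accessible, and each peak marks a site of frequent cutting. The series was made in mouse embryonic stem (ES) cells to ask how topoisomerase II (TOP2), which passes DNA duplexes through each other, works with the BAF (SWI/SNF) chromatin remodeller.

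Wild-type ES cells received 1 µM ICRF-193, a catalytic inhibitor of TOP2, or DMSO, its solvent. Treatment lasted 24 h, with 2 libraries in each group, or 1 h, with 3 in each, which the titles and the series design give, while the treatment protocol names 24 h for all wild-type samples. In the line Brg1fl/fl; Actin-CreER, 0.8 µM tamoxifen for 24 h and 48 h in fresh medium was used to delete Brg1, the ATPase of BAF (2 libraries), with ethanol as the control (2 libraries). In the line Baf53afl/-; Actin-CreER, the same tamoxifen and ethanol treatments were used to delete Baf53a, an actin-related subunit of BAF (2 libraries per group). Both conditional lines carry Actin-CreER in their controls too, and the Baf53a controls already lack 1 allele. No wild-type cells with Actin-CreER were given tamoxifen among these samples, so the effects of tamoxifen and of Cre cannot be told apart from those of each deletion. Replicates are passages of a line, so that every p-value of a comparison between groups measures the spread between passages and libraries. Peaks were not tied to gene models here, so neither the deletions nor the ES cell label could be checked at marker genes.

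Olfactory receptors are odour-sensing G protein-coupled receptors, and their genes form the largest gene family of the mouse. The genes are short, stand in tandem clusters and are used by olfactory sensory neurons, each of which expresses a single receptor allele while the rest are held in constitutive heterochromatin. In ES cells the clusters are silent, late-replicating and poor in CpG islands, so that they serve as an example of closed chromatin. BAF is known for opening chromatin at enhancers, and the cluster on chromosome 7 also surrounds the beta-globin genes.

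The make-up of the clusters was read from the RefSeq gene table of another build (GRCm38.p6) by gene order only, and no position from it was set against a peak. The run of receptor genes on chromosome 2 held 293 receptor genes (222 protein-coding) and 3 other protein-coding genes. The run on chromosome 9 held 127 (95 protein-coding) and 3 others. The run on chromosome 7 held 238 (193 protein-coding) together with 55 other protein-coding genes, among them 13 Trim genes, 5 Hbb (beta-like globin) genes and housekeeping genes such as Ilk, Taf10 and Tpp1. The cluster on chromosome 7 was therefore the most mixed of the 3.

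RefSeq promoter windows (GRCm38.p6, 250 bases before to 50 after the annotated start) were matched for 435 of the 510 protein-coding receptor genes of the runs. They held a median of 1 CpG, the dinucleotide that marks CpG island promoters, against 13 over 17492 protein-coding genes. No receptor window had 10 or more CpG, against 57.2% of all windows and 12 of 43 (27.9%) among the other genes of the chromosome 7 run. A receptor window from the middle of each run and that of Syt9, the non-receptor gene of the chromosome 7 run with the most CpG (chosen after the values were seen), show the contrast. Each is written 5′ to 3′ on the plus strand, with CpG in capitals.

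Olfr1152, GRCm38.p6 chr2:87867743-87868042, plus strand: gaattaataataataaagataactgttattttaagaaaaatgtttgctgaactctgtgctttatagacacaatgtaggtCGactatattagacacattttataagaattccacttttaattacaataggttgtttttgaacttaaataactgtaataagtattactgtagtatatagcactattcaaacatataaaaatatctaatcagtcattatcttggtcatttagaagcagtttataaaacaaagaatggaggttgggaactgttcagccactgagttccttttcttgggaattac
Olfr656, GRCm38.p6 chr7:104617407-104617706, plus strand: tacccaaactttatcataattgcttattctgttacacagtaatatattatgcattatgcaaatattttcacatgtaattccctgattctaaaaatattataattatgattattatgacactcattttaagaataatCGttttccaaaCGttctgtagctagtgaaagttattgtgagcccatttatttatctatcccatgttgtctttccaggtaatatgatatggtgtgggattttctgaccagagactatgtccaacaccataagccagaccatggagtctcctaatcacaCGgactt
Olfr930, GRCm38.p6 chr9:38929923-38930222, plus strand: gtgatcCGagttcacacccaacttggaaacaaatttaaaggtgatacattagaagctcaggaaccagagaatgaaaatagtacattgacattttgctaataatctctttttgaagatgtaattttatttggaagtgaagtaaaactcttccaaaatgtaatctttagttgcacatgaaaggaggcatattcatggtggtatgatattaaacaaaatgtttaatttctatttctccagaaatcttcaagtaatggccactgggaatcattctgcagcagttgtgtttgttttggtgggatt
Syt9, GRCm38.p6 chr7:107370540-107370839, plus strand: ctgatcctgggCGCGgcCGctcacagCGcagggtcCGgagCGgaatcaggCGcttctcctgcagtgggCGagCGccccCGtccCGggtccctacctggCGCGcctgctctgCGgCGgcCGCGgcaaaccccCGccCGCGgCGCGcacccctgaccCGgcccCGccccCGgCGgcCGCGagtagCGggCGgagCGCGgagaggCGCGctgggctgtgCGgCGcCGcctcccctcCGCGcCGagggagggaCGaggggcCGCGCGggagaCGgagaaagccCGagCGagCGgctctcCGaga

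The windows of Olfr1152 and Olfr930 hold 1 CpG each, that of Olfr656 holds 3 and that of Syt9 holds 49. The GC content is 28.0%, 33.7%, 32.7% and 79.3% in that order. The motif TCCCNNGGGA, a form of the Ebf site described for receptor promoters, was found on either strand in 1 of 435 receptor windows (0.230%) against 0.943% of all windows. The annotated span was under 1 kb and a multiple of 3 for 347 of the 510 receptor models (68.0%), so that many of these starts may be coding starts and the windows may miss the promoter.

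Most of the 1424 regions were weak and seen in a single library. A peak in only 1 library defined 878 of them (61.7%), compared with 54.9% of all regions of the genome. A peak in all 18 libraries was found for 44 (3.09%), compared with 4.79% of all regions, and a peak in 9 or more for 192 (13.5%), compared with 17.3%. The median width of the single-library regions was 141.5 bp and that of the regions held by all 18 was 824.5 bp. Peak scores, which are the authors' own values and were used only as percentiles within a list, had medians at percentile 17.4 for the former and 90.3 for the latter. The number of libraries that hold a region thus went with its width and score, as it did over all regions (138 bp and 915 bp).

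The 3 intervals differed in how many stable regions they held. Chromosome 7 had 39 of the 44 regions found in every library, chromosome 2 had 2 and chromosome 9 had 3. Single-library regions made up 69.1% of the regions on chromosome 2, 58.3% on chromosome 7 and 61.8% on chromosome 9. The top region of chromosome 7, chr7:112547952-112549279, lay at percentile 99.8 ± 0.142 (SD, n = 18) of the scores. Those ranked next, chr7:112959054-112960081 and chr7:112892426-112893240, lay at 99.7 ± 0.165 and 98.8 ± 1.04 (n = 18 each). On chromosome 9, chr9:38214863-38215680 lay at percentile 98.7 ± 1.42 (n = 18), chr9:38682144-38682986 at 87.3 ± 13.0 and chr9:38640302-38641382 at 84.5 ± 14.7. On chromosome 2, chr2:87374719-87375441 lay at 90.6 ± 12.4 and chr2:87355799-87357344 at 81.2 ± 11.3 (n = 18 each), while chr2:86282048-86283222, at 93.3 ± 6.27 (n = 17), lacked a peak in 1 library, a Brg1 tamoxifen one. The 3 sites named on chromosome 7 were near the top of every list, and those named on chromosome 2 ranged more widely. The former were picked by score from 39 regions held by all 18 libraries, while chromosome 2 had only 2 such regions. The named sites thus do not compare the intervals. Over all regions held by 18 libraries the median percentile was 85.9 on chromosome 2, 90.4 on chromosome 7 and 87.3 on chromosome 9.

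Regions were bunched within the intervals. The 500 kb window of chromosome 7 from 112500001 to 113000000 held 123 regions, 15 of them in all 18 libraries, and 15.9% of all peaks in the intervals. The next window, from 113000001 to 113500000, held 11 regions and none in all 18. The most regions, 180, were in the window from 114500001 to 115000000, with 5 in all 18 libraries and 12.8% of the peaks. No list had any peak in the 416 kb from 112967615 to 113383476 of chromosome 7. The longest such stretch was 126 kb on chromosome 2 and 66.8 kb on chromosome 9. On chromosome 2 the window from 87000001 to 87500000 held 100 of the 388 regions, 14 of its 34 regions in 9 or more libraries and both of those in all 18. Near-identical receptor genes can share reads, so that positions and counts in these clusters are less certain than elsewhere.

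**Figure D1:**
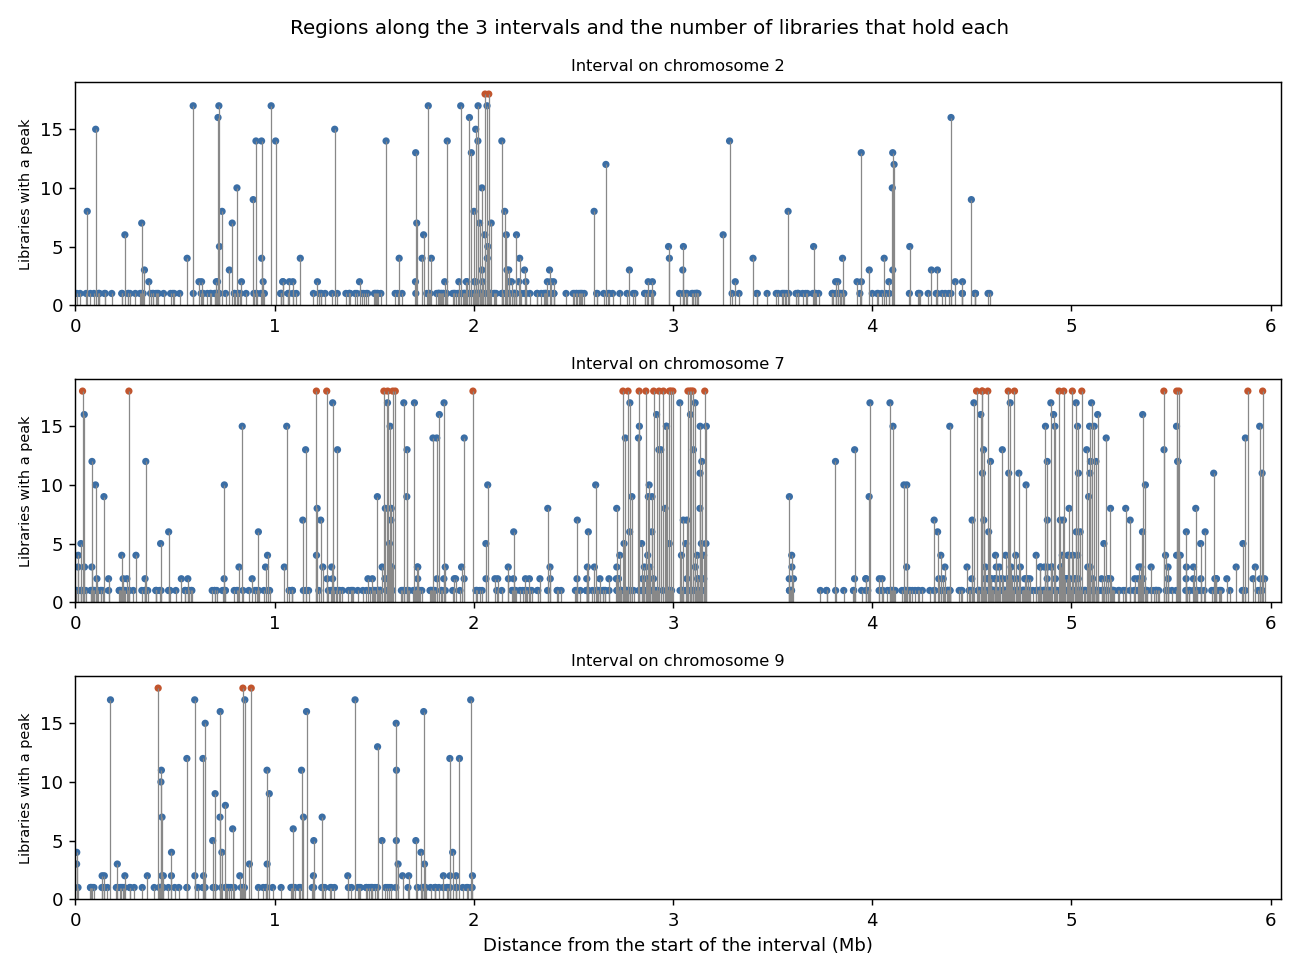
Each of the 1424 regions is drawn at its distance from the start of its interval (x axis, Mb) with the number of libraries that hold a peak there (y axis, 0 to 18), and regions held by all 18 libraries are orange. The 44 orange points sit mainly in a few bunches of the chromosome 7 interval, beside a gap of 416 kb with no region.

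Lists of 46431 to 129880 peaks (median 92067) had 121 to 451 peaks in the 3 intervals. These were 9.60 to 35.8 peaks per Mb (median 24.0), compared with 27.3 to 66.7 (median 50.3) in flanks of the same length on either side. The ratio of interval to flank ran from 0.352 to 0.570 with a median of 0.437, below 1 in 18 of 18 libraries. Peaks in the intervals were of ordinary strength where present: their median width was 186 to 214 bp (186 to 224 bp over each list) and their median score percentile 44.2 to 62.9. The clusters were thus sparse in peaks and not made up only of weak ones. In bulk ATAC-seq, fewer cells with an open site and a smaller opening per cell cannot be told apart, and the lists hold no read counts, so that the read depth behind each value is unknown.

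Peak density, the number of peaks in the intervals per 100000 peaks of the list, was 261 to 368 over the 18 libraries. It went with the length of the list, which matters for every comparison that follows. Over 18 libraries the log2 density and log2 list length had a Pearson r of 0.55 (permutation p = 0.01789, 0.0298 after Benjamini-Hochberg adjustment over 5 relations) and a Spearman rho of 0.45 (p = 0.06175, adjusted 0.0791). Without the 2 shortest lists, Brg1 tamoxifen replicate 2 and ICRF-193 1 h replicate 2, r was 0.34, so that the relation rests in part on them. Among the 8 libraries numbered 1 it was -0.30, and among the 10 numbered 2 or 3 it was 0.77, so that it did not hold within the former. The names of the deposited lists tag the libraries numbered 1 differently from the others, and the labels do not say whether this marks separate experiments. The 18 libraries also span all treatments and lines, and lists were shorter on average in each perturbed group, as with Brg1 tamoxifen (mean 65597) and ethanol (96240). A relation to list length thus cannot be told apart from differences between groups.

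The 3 intervals behaved differently in this respect. On chromosome 2 r was 0.75 (permutation p = 0.00039, adjusted 0.00195; rho 0.71, p = 0.00128, adjusted 0.0064), 0.61 without the 2 shortest lists, 0.0995 in libraries numbered 1 and 0.83 in the others. On chromosome 7 r was 0.028 (p = 0.9123, adjusted 0.9123; rho -0.032, p = 0.9011) and on chromosome 9 it was 0.46 (p = 0.0553, adjusted 0.0691; rho 0.45, p = 0.06329). In libraries numbered 1 and in the others, r was -0.64 and 0.30 on chromosome 7, and 0.11 and 0.70 on chromosome 9. The ratio of interval to flank had an r of 0.65 (p = 0.00353, adjusted 0.00882; rho 0.61, p = 0.00799), again negative (-0.17) among libraries numbered 1. Over all 18 libraries short lists thus had fewer of their peaks on chromosome 2. The share on chromosome 7 showed no such relation over the 18, where r had opposite signs in libraries numbered 1 and in the others.

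**Figure D2:**
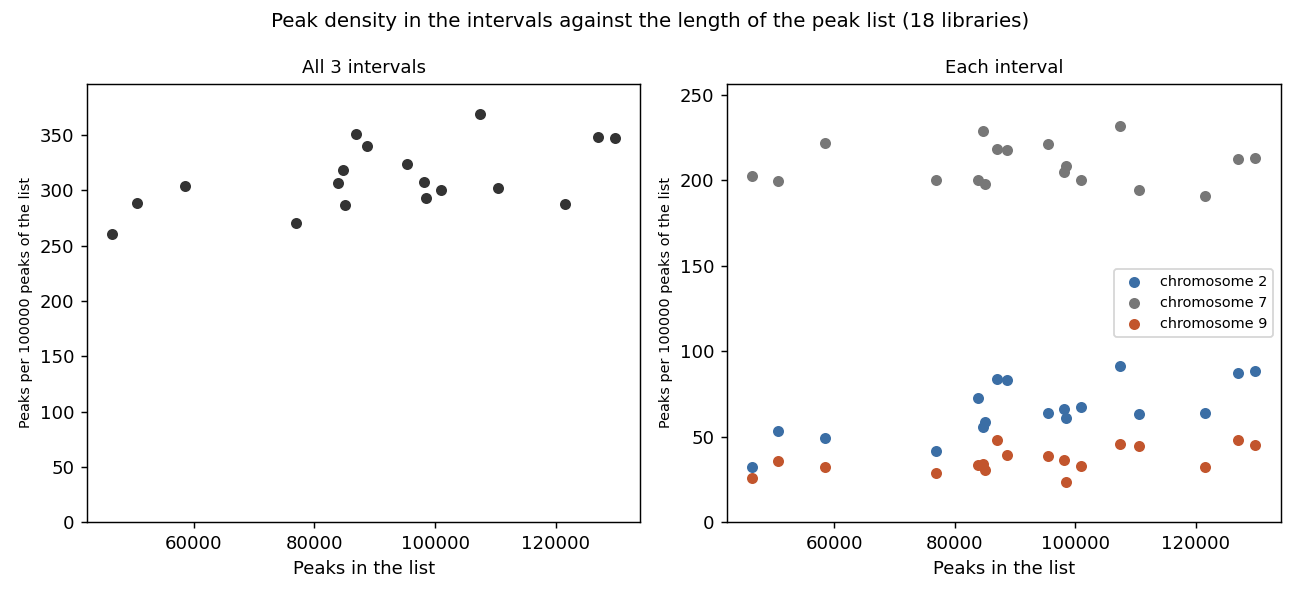
Peaks in the intervals per 100000 peaks of the list (y axis) are plotted against the number of peaks in the list (x axis) for the 18 libraries, for the 3 intervals together (left) and each alone (right). The chromosome 2 points climb from 32.3 to 91.2 with list length, while the chromosome 7 points stay between 191 and 232.

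ICRF-193 for 24 h came with a lower peak density in the clusters, but with 2 libraries in each group the test could not pass. Density was 307.6 and 347.9 in the DMSO libraries and 292.6 and 270.5 in the ICRF-193 libraries, so that the groups did not overlap. The means were 327.8 ± 28.5 and 281.5 ± 15.6 (SD, n = 2 each), a log2 difference of -0.22 or 0.860-fold (two-sided exact permutation p = 0.3333, the smallest that 2 against 2 allows; 0.6666 after Benjamini-Hochberg adjustment over the 4 comparisons). The difference was -0.072 between the libraries numbered 1 and -0.36 between those numbered 2. List lengths differed little in the former (98166 and 98440 peaks) and greatly in the latter (127030 and 76898). With equal list lengths the difference was -0.13.

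The difference lay on chromosomes 2 and 9. On chromosome 2 the DMSO libraries had 65 and 111 peaks (66.2 and 87.4 per 100000) and the ICRF-193 libraries 60 and 32 (61.0 and 41.6), a log2 difference of -0.59. With 1 library left out this ran from -0.86 (without ICRF-193 replicate 1) to -0.32 (without ICRF-193 replicate 2), and it was -0.39 without DMSO replicate 2. On chromosome 9 they had 36 and 61 (36.7 and 48.0 per 100000) against 23 and 22 (23.4 and 28.6), a difference of -0.68. The groups overlapped on neither chromosome. On chromosome 7 the difference was -0.030 and the groups overlapped. The exact p was 0.3333, 0.3333 and 0.6667, with adjusted values of 0.7999 or more over the 12 comparisons of 4 treatments in 3 intervals. When each list was cut to its 76898 top-scoring peaks, chromosome 9 still held 28 to 29 peaks against 18 to 22, while on chromosome 2 the groups overlapped (44 to 55 against 32 to 46).

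Of 200 regions in the clusters with a peak in both DMSO libraries, 39 (19.5%) had no peak in either ICRF-193 library and are called lost, against 15.5% over the genome (65604 regions). Of 131 with a peak in both ICRF-193 libraries, 2 (1.53%) had none in either DMSO library and are called gained, against 5.46%. With equal list lengths the losses were 22 of 167 (13.2%, genome 11.6%) and the gains 6 of 129 (4.65%, genome 8.05%). The losses were thus near the share of the genome. The lost region with the highest scores, chr9:38934924-38935282 (359 bp), lay at percentile 90.3 ± 2.21 (n = 2) in DMSO and was held by 11 libraries, among them 2 of 3 ICRF-193 1 h libraries. The next were chr9:38231328-38231727 at percentile 75.2 ± 3.34 and chr7:114760204-114760638 at 75.0 ± 8.4. Those that followed were chr7:114835139-114835579 at 74.6 ± 8.86 and chr9:38439937-38440423 at 67.7 ± 9.72 (n = 2 each). Of these 5 strongest losses 3 lay on chromosome 9, which held 11 of all 39. The regions that both DMSO libraries held were not counted by interval, so these counts give no rate of loss per interval. The 2 gained regions were chr7:109813169-109813586 at percentile 75.9 ± 5.94 and chr7:112851606-112851882 at 29.1 ± 12.2 (n = 2 each).

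After 1 h of ICRF-193 the clusters showed no difference larger than the spread between libraries. Density was 287.2, 304.1 and 347.2 in DMSO and 300.2, 288.5 and 323.9 with ICRF-193, with means of 312.9 ± 31.0 and 304.2 ± 18.04 (SD, n = 3 each). The groups overlapped, and the log2 difference of -0.037 (exact permutation p = 0.7, smallest 0.1; adjusted 0.7) became 0.047 with equal list lengths. The numbered pairs gave 0.064, -0.075 and -0.0997. Of 121 regions with a peak in all 3 DMSO libraries 1 was lost (0.826%, genome 2.28%), chr7:114419129-114419427 at percentile 13.5 ± 5.34 (n = 3), and of 101 with a peak in all 3 ICRF-193 libraries 0 were gained (genome 0.375%). The list of DMSO replicate 2 had 58532 peaks and that of ICRF-193 replicate 2 had 50611, which limits what all 3 libraries of a group can share. The 24 h and 1 h differences were themselves -0.18 apart, which did not pass the exact permutation test over libraries (p = 0.3667, adjusted 0.3667 over 2 such comparisons).

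After Brg1 deletion the clusters held fewer peaks on chromosome 2 and about the same share on chromosome 7. With 2 libraries per group the exact p cannot fall below 0.3333, so neither total density nor any single interval could pass the test. Total density was 368.5 and 287.0 in ethanol and 318.5 and 260.6 after tamoxifen, so that the groups overlapped. The means were 327.8 ± 57.6 and 289.6 ± 41.0 (SD, n = 2 each), a log2 difference of -0.17 (exact permutation p = 0.6667, adjusted 0.7). It was -0.21 between libraries numbered 1 and -0.14 between those numbered 2, and 0.0068 without ethanol replicate 1. The list of tamoxifen replicate 2, with 46431 peaks, was the shortest of the 18.

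Chromosome 2 carried most of the difference. It held 98 and 50 peaks in ethanol (91.2 and 58.8 per 100000) and 47 and 15 after tamoxifen (55.4 and 32.3), a log2 difference of -0.77 or 0.586-fold. With 1 library left out this ran from -1.14 (without tamoxifen replicate 1) to -0.40 (without tamoxifen replicate 2), and it was -0.46 without ethanol replicate 1. The groups did not overlap (exact p = 0.3333, the smallest possible, adjusted 0.7999). The lower ethanol value and the higher tamoxifen value, from lists of 85007 and 84763 peaks, were nevertheless close. On chromosome 9 the counts were 49 and 26 against 29 and 12 (log2 difference -0.31), and on chromosome 7 they were 249 and 168 against 194 and 94 (0.011), with overlapping groups in both. When each list was cut to its 46431 top-scoring peaks, chromosome 2 held 23 to 36 peaks in ethanol and 15 to 21 after tamoxifen (log2 difference -0.68), and chromosome 7 held 96 to 116 and 94 to 98 (-0.14). The chromosome 2 difference therefore kept its direction at equal list length. The longest stretch without a peak on chromosome 2 was 264 and 364 kb in ethanol and 1043 and 995 kb after tamoxifen. Short lists of cells without a deletion also had long stretches, 1208 kb in ICRF-193 24 h replicate 2, 990 kb in ICRF-193 1 h replicate 2 and 819 kb in DMSO 1 h replicate 2. Lists about as long as that of Brg1 tamoxifen replicate 1 (84763 peaks) had shorter stretches. These were 364 kb in Brg1 ethanol replicate 2 (85007 peaks), 484 kb in Baf53a ethanol replicate 2 (83918) and 413 kb in Baf53a tamoxifen replicate 2 (86960). What set the length of these stretches was not tested.

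Losses after Brg1 deletion stood slightly above the share of the genome. Of 180 regions that both ethanol libraries shared, 52 were lost (28.9%, genome 23.9%), 17 on chromosome 2, 28 on chromosome 7 and 7 on chromosome 9. The 180 were not counted by interval, so the last 3 counts give no rate of loss per interval. With equal list lengths 29 of 112 were lost (25.9%, genome 18.9%). Over 5 classes of score, from weakest to strongest, the lost were 14 of 28 (50.0%, genome 48.4%), 16 of 38 (42.1%, genome 33.1%), 11 of 34 (32.4%, genome 23.4%), 8 of 29 (27.6%, genome 11.9%) and 3 of 51 (5.88%, genome 2.50%). Of 84 regions with a peak in both tamoxifen libraries 4 were gained (4.76%, genome 4.97%). A share near that of the genome is not a result about the clusters, and no test was made of these shares.

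Among the regions lost after Brg1 deletion was a site that every library outside the Brg1 tamoxifen group held. The region chr2:89695754-89696193 (440 bp) had a peak in 16 of 18 libraries and lay at percentile 94.7 ± 1.88 (n = 2) in ethanol. The region chr7:113904204-113905082 (879 bp) was held by 15 libraries, at 93.9 ± 4.42 in ethanol, and chr9:39410013-39410455 by 15, at 83.3 ± 11.9. The others named were chr2:89402916-89403344 in 13 libraries at 92.7 ± 4.57 and chr7:115514428-115514750 in 11 at 82.7 ± 14.9 (n = 2 each). All 4 gained regions are named here, led by chr7:115156779-115157411 at percentile 47.9 ± 15.8 and chr2:89005909-89006189 at 41.0 ± 5.92. They were followed by chr2:89400668-89401219 at 34.3 ± 35.0 and chr2:85548059-85548370 at 14.3 ± 12.2 (n = 2 each). The 5 losses named were picked as the highest-scoring of 52, so the strength of losses and gains cannot be compared from these regions. Of the 52 regions lost here, 10 were also lost with ICRF-193 at 24 h, which is 19.2% of these and 25.6% of the 39. Over the genome 1471 regions were lost in both, 10.9% and 14.5% of those lost in each comparison.

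Baf53a deletion went the other way. Density was 302.3 and 306.3 in ethanol and 340.4 and 350.7 after tamoxifen, without overlap. The means were 304.3 ± 2.83 and 345.5 ± 7.34 (SD, n = 2 each), a log2 difference of 0.18 or 1.14-fold (exact permutation p = 0.3333, the smallest possible; adjusted 0.6666), and 0.17 and 0.20 between the numbered libraries. Tamoxifen lists had 88729 and 86960 peaks and ethanol lists 110503 and 83918. The difference was 0.30 on chromosome 2, where ethanol libraries had 63.3 and 72.7 peaks per 100000 and tamoxifen libraries 83.4 and 83.9. It was 0.14 on chromosome 7 (194.6 and 200.2 against 217.5 and 218.5) and 0.18 on chromosome 9 (44.3 and 33.4 against 39.4 and 48.3). The groups overlapped on chromosome 9 only, where the sign turned (-0.019) without ethanol replicate 2.

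When each Baf53a list was cut to its 83918 top-scoring peaks, chromosome 2 held 47 to 61 peaks in ethanol and 67 to 73 after tamoxifen, and chromosome 7 held 153 to 168 and 176 to 182. The higher density was thus also seen at equal list length. Of 156 regions that both ethanol libraries shared, 13 were lost (8.33%, genome 11.2%), and of 156 with a peak in both tamoxifen libraries 16 were gained (10.3%, genome 5.49%). With equal list lengths 10 of 149 were lost (6.71%, genome 9.57%) and 19 of 154 gained (12.3%, genome 6.67%). The gained region with the highest scores, chr2:89753231-89753615 (385 bp), had a peak in the 2 tamoxifen libraries of this line and in no other library, at percentile 65.7 ± 5.36 (n = 2). The other strong gains were held by 7 to 15 libraries and were missing from both Baf53a ethanol lists: chr7:115334616-115335161 (percentile 63.0 ± 7.24), chr7:111464587-111464949 (62.4 ± 23.1), chr2:86086871-86087189 (54.7 ± 0.163) and chr7:110860456-110861009 (48.8 ± 26.6). The strongest losses were chr7:114678727-114679110 at 75.5 ± 3.18, chr7:114835139-114835579 at 57.5 ± 23.5, chr7:111613585-111614324 at 53.5 ± 5.30, chr9:39316711-39317032 at 51.0 ± 1.77 and chr7:114128315-114128802 at 41.3 ± 15.5 (n = 2 each). Of these, chr7:114678727-114679110 was also lost after Brg1 deletion and chr7:114835139-114835579 with ICRF-193 at 24 h. Of the 13 regions lost after Baf53a deletion, 3 were also lost after Brg1 deletion (23.1%, genome 17.95%). The number shared with ICRF-193 at 24 h was also 3 (23.1%, genome 9.71%). These overlaps were not tested.

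**Figure D3:**
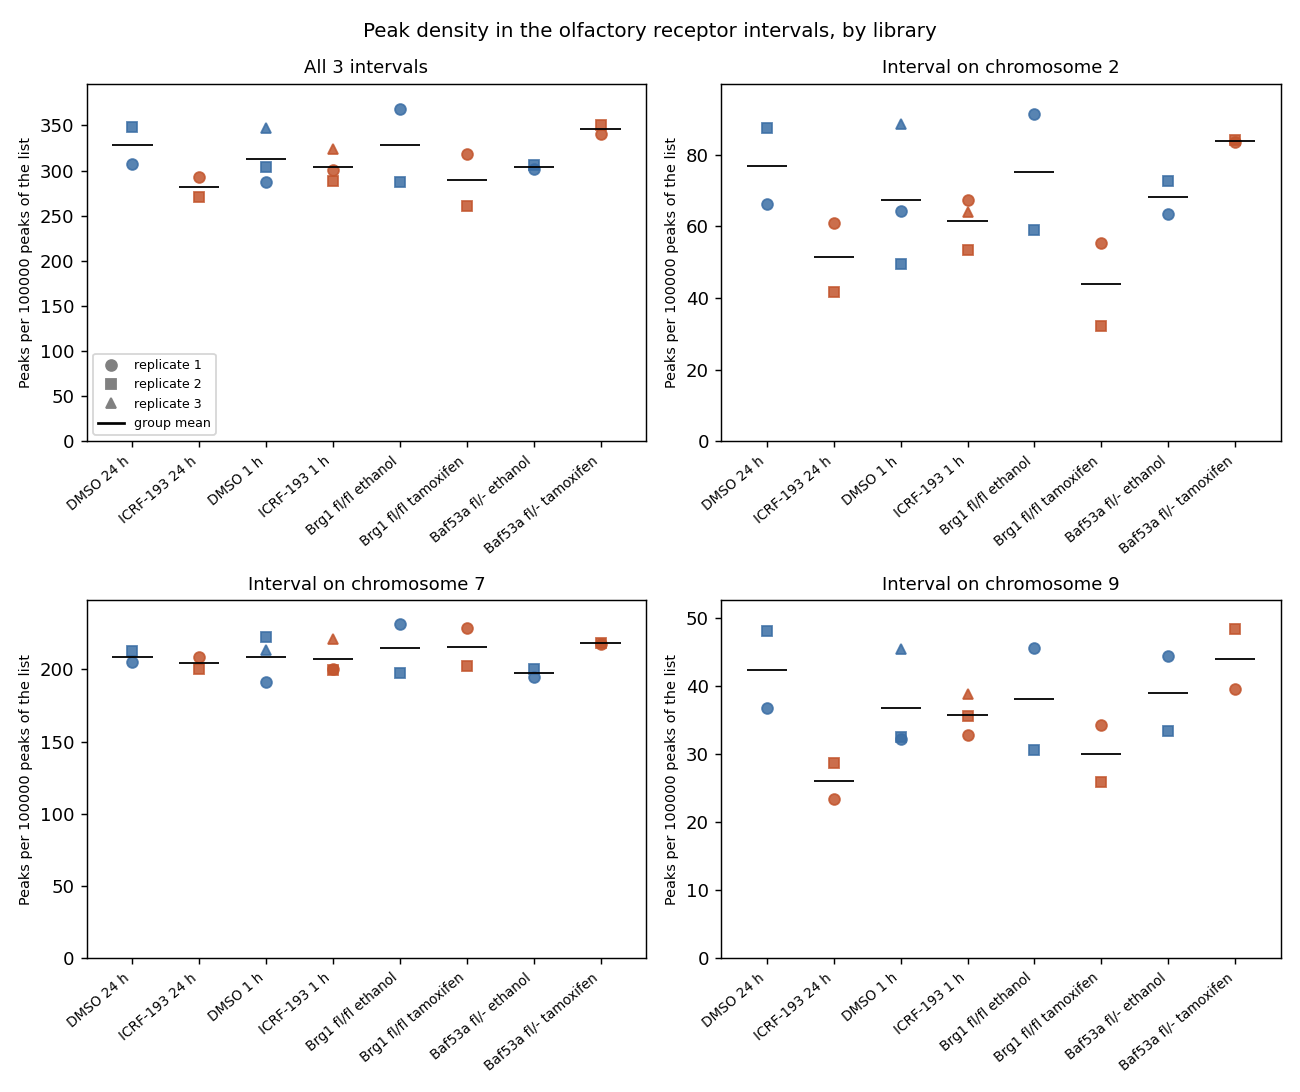
Peaks per 100000 peaks of the list (y axis) are shown for each library, with controls in blue, perturbed libraries in orange, symbols for replicate numbers and a line at each group mean, for the 3 intervals together and each alone. On chromosome 2 the Brg1 tamoxifen points (55.4 and 32.3) lie below both ethanol points, and the Baf53a tamoxifen points (83.4 and 83.9) lie above theirs.

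**Figure D4:**
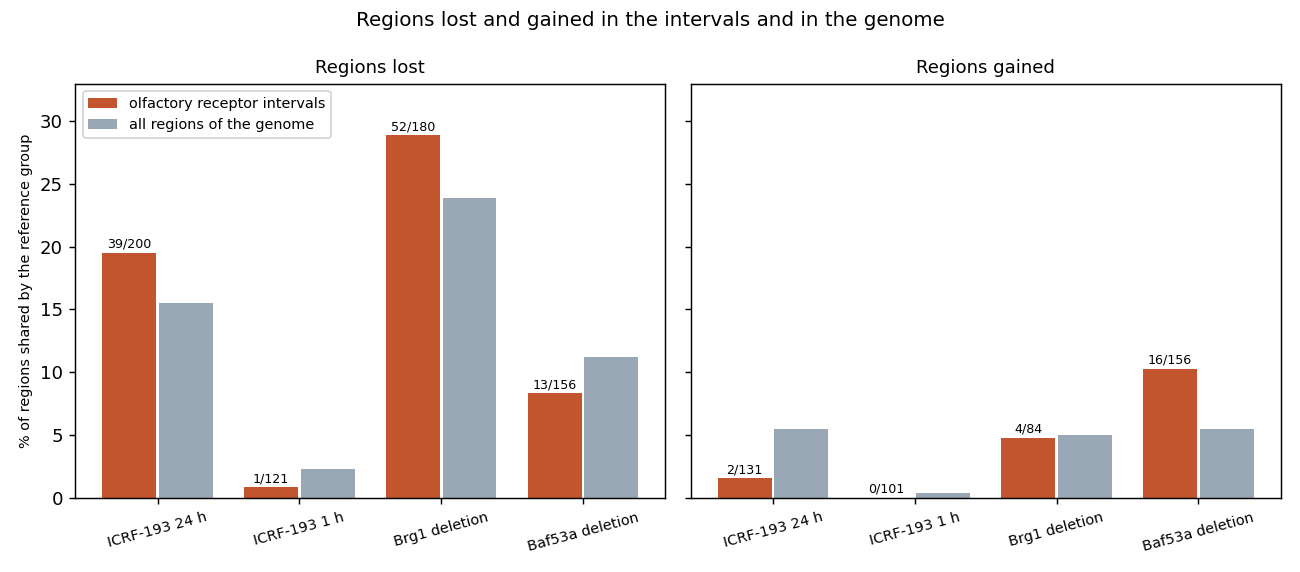
Bars give the percentage of regions lost (of those held by every control library, left) and gained (of those held by every perturbed library, right) in the olfactory receptor intervals (orange, with counts) and over the genome (grey). Losses after Brg1 deletion reach 28.9% in the intervals against 23.9%, and gains after Baf53a deletion 10.3% against 5.49%.

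The mean difference in density over all 4 comparisons did not pass the test. The mean of the 4 log2 differences was -0.061 (two-sided exact permutation within comparisons, 4320 arrangements, p = 0.4315), and the perturbed library was lower in 6 of 9 numbered pairs. The Brg1 and Baf53a deletions were -0.36 apart in log2 density (exact permutation p = 0.1111, smallest 0.0556; adjusted 0.2222 over 2 such comparisons). Relative to the flanks the log2 differences were -0.26 (ICRF-193, 24 h), -0.076 (1 h), -0.27 (Brg1) and 0.19 (Baf53a), with exact p of 0.3333, 0.7, 0.6667 and 0.3333. The directions were the same as those of the density.

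A finer view came from 1 Mb bins, tested with limma over 2488 bins of the genome with a mean of 5 or more peaks. All 15 bins that overlap the intervals were tested. Their median number of peaks was 20.6 (mean over 18 libraries per bin), against 31.1 over all 2592 bins of the genome, which puts the median bin of the clusters at percentile 34.0. The sparsest was chromosome 2 from 88000001 to 89000000, with 5.67 peaks (percentile 4.98), and the densest bin wholly inside an interval was chromosome 7 from 114000001 to 115000000, with 58.5 (percentile 82.3). The bin of chromosome 7 from 109000001 to 110000000 had 64.3, most of it outside the interval. The clusters thus ranged from some of the emptiest stretches tested to well-filled ones.

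A single bin of the clusters passed the test, after Brg1 deletion: chromosome 7 from 113000001 to 114000000. It held 12 and 7 peaks in ethanol and 3 and 1 after tamoxifen, without overlap. Scaled to list length the log2 change was -1.47 (SE 0.43, limma adjusted p = 0.0478), and in this comparison 3.26% of bins of the genome were called lower and 0.683% higher. A count of 1 cannot be set apart from this background. The call ended without ethanol replicate 1 (adjusted p = 0.319), ethanol replicate 2 (0.0902) or tamoxifen replicate 2 (0.292). It also ended at equal list lengths (log2 change -1.30, adjusted p = 0.0676), with pseudocount 2 (-0.93, 0.117) and with quantile normalization (-0.54, 0.527), with the direction kept in each. In the other 14 libraries this bin held 4 to 22 peaks. It is the sparsest bin of the chromosome 7 interval and contains chr7:113904204-113905082, named above. The densest bin wholly inside that interval, from 114000001 to 115000000, held 66 and 57 peaks in ethanol and 68 and 28 after tamoxifen, with overlapping groups.

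On chromosome 2 the bin from 88000001 to 89000000 held 10 and 4 peaks in Brg1 ethanol and 0 and 1 after tamoxifen, a log2 difference of -2.38 (SE 0.74, limma adjusted p = 0.0619) that did not pass the test. The bin from 87000001 to 88000000, the densest of this interval, held 37 and 21 against 19 and 6 (-0.73, SE 0.24, adjusted p = 0.0746). Over the alternatives these differences ran from -3.61 to -0.76 and from -1.09 to -0.37. The sparsest and densest bins of chromosome 9, from 39000001 to 40000000 and from 37000001 to 38000000, held 25 and 16 against 17 and 6 peaks, and 68 and 48 against 55 and 23. Most of the latter bin lies outside the interval, which holds a mean of only 2.06 of its 51.4 peaks. All 4 bins in the sparsest of 5 density classes had lower values after Brg1 deletion, with a median log2 difference of -1.22, beside -0.54 over the 497 bins of that class in the genome. In the densest class the medians were 0.13 (2 bins) and 0.14. Lower values in sparse bins were thus also seen over the genome, and the lists were shorter after deletion (84763 and 46431 peaks against 107473 and 85007).

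In the other comparisons no bin of the clusters passed, and none of the genome did (0% lower and 0% higher in each). At an unadjusted p under 0.05 limma gave 1 of the 15 bins with ICRF-193 at 24 h, 0 at 1 h, 5 after Brg1 deletion and 1 after Baf53a deletion, beside 255, 74, 552 and 113 of the 2488. The value was lower in 12 of 15 bins with ICRF-193 at 24 h, in 4 at 1 h, in 11 after Brg1 deletion and in 2 after Baf53a deletion, beside 53.7%, 53.4%, 56.3% and 51.9% of all bins. Median log2 differences over the 15 bins were -0.39, 0.043, -0.34 and 0.19, against -0.026, -0.014, -0.060 and -0.0084 over all bins. Sparse bins of the genome were also lower with ICRF-193 at 24 h: in the sparsest density class the median was -0.47 over 497 bins and -0.59 over the 4 of the clusters. The difference between the Brg1 and Baf53a effects passed in 0 of the 15 bins (lowest adjusted p 0.263, limma; 4 at an unadjusted p under 0.05) and in 0% of the genome in either direction.

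**Figure D5:**
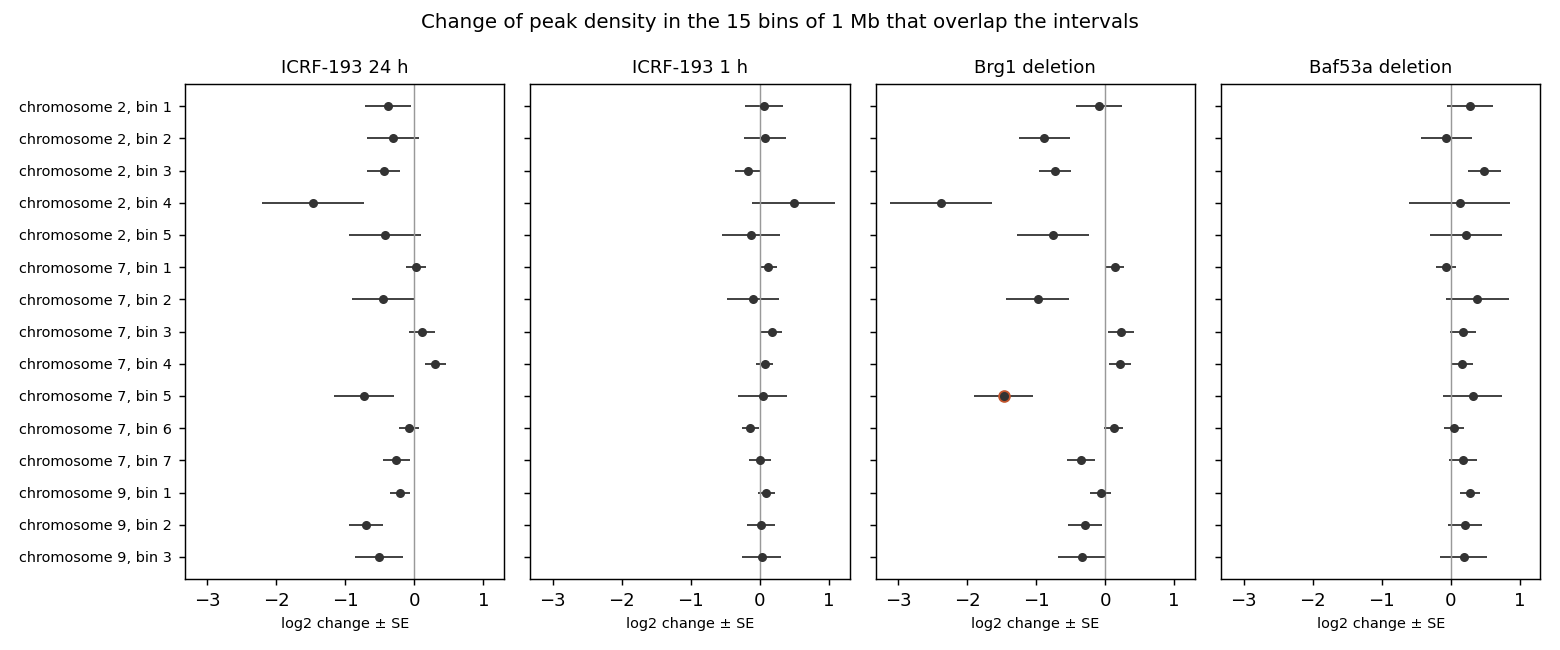
Log2 change of scaled peak number (x axis, with SE) is shown for the 15 bins of 1 Mb that overlap the intervals. Bins are numbered along each chromosome, with a panel for each of the 4 comparisons. An orange point marks the only bin that passed, in the Brg1 panel. Brg1 points of sparse bins lie to the left, to -2.38, and 13 of 15 Baf53a points lie to the right of 0.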

How the data were processed

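Each of the 18 deposited files is the authors' list of ATAC-seq peaks for 1 library, with no pooling of samples. The submitters' processing notes name build mm9, Bowtie 0.12.9, MACS2 and edgeR 3.12.1 without saying what each did. Read shifting, the treatment of multi-mapping reads and calling thresholds: not given in the sources used here. Peak starts and ends (other values) were taken as the authors deposited them, and printed positions are 1-based. Peak score is a deposited value of the authors with no stated unit, used only to rank peaks within a list. The lists hold no reads, so depth is unknown, list length stands in for it only in part, and no counting error can be given.

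Groups were taken from the titles. Peaks overlapping by 1 bp or more were merged into regions, and a region was detected in a library with 1 or more peaks in it. Density was log2((peaks + 0.5) / list total × 100000), compared by two-sided exact permutation over libraries. Peaks in 1 Mb bins were scaled to list total with a pseudocount of 0.5 and fitted with limma 3.58.1 (R 4.3.3, variance trend, 1 term per group, p-values adjusted by Benjamini-Hochberg over 2488 bins, threshold 0.05). The bin test was tested on simulated data. Other steps used Python 3.11.15, numpy 2.4.6, pandas 2.3.3 and scipy 1.17.1. Correlation p-values came from 100000 permutations. For equal list lengths each list was cut, by score, to the number of peaks in the shortest list of its comparison. For the 1 Mb bins and for the number of libraries that hold a region, all 18 lists were instead cut to 46431 peaks.

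The intervals, gene lists and tests were chosen with earlier results of these data known. Named regions are, per interval, the 3 in the most libraries (ties by mean score percentile) and, per comparison, up to 5 lost and 5 gained ones that rank highest by mean score percentile over the lists holding them. At 1 h the deviations of same-numbered libraries were correlated over bins (0.15, 0.47 and 0.40). Differently numbered libraries were not compared, so that pairing is not established, and the paired fit is among the alternatives. A reference of the mm9 build was not used here, so region sequences are not shown.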

Additional observations from a re-analysis of the deposited data

Results flagged for a closer look

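The log2 change of peak density in the clusters after Brg1 deletion minus that after Baf53a deletion was -0.36. It stands out because both Brg1 pairs of equal replicate number were lower after tamoxifen (-0.21 and -0.14) while both Baf53a pairs were higher (0.17 and 0.20). The exact permutation test of the difference over libraries gave p = 0.1111. Its smallest possible value, 0.0556, is already above the threshold, so this test could not pass and does not decide the question. In both lines it is not established that equal replicate numbers mark pairs. The Brg1 groups overlapped, and the Brg1 change was 0.0068 without ethanol replicate 1. The Brg1 tamoxifen lists were shorter (84763 and 46431 peaks) than the Baf53a tamoxifen lists (88729 and 86960). With equal list lengths within each comparison the log2 changes were -0.22 after Brg1 deletion and 0.22 after Baf53a deletion.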

How the results depend on the processing

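Of the values recomputed without leaving out a library, 102 kept their direction, their side of the threshold and, for counts, stayed within 1.5 times, 17 moved and 7 reversed; the causes were not tested. For density and flank values of a single comparison the exact permutation p cannot fall below 0.3333 (2 against 2) or 0.1 (3 against 3). No setting could change their side of the threshold, and only their direction was open. Reversals concerned small differences. For ICRF-193 at 1 h (-0.037) density became 0.047 with equal list lengths, 0.17 with the upper 50% of each list by score and 0.062 with regions in 2 or more libraries (an alternative chosen after seeing the data), and against the flanks 0.18 with the upper 50% and 0.037 with equal lengths. For Brg1, chromosome 7 alone gave 0.011, and the mean over the 4 comparisons was 0.030 with the upper 50%. Equal lengths gave 22 losses and 6 gains (ICRF-193, 24 h), 0 losses (1 h), and 29 losses and 7 gains (Brg1); the upper 50% gave 17 losses (24 h), 32 losses and 2 gains (Brg1), and 4 losses and 9 gains (Baf53a). Regions in 1 library numbered 102 with the upper 50% and 143 with equal lengths. Brg1 bins called numbered 0 with a filter of 10 peaks (which drops the called bin), quantile normalization, pseudocount 2 or equal lengths, and 3 with the replicate block, which added chromosome 2 from 87000001 to 88000000 and from 88000001 to 89000000 (limma adjusted p 0.0384 and 0.0337). The block changed no other call. At 24 h and in both deletions the correlations of same-numbered libraries were -0.045, 0.11 and 0.0093, and pairing is not established there either.

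Leaving out each library gave density differences of -0.31 to -0.13 (ICRF-193, 24 h), -0.097 to 0.040 (1 h), -0.35 to 0.0068 (Brg1), 0.16 to 0.21 (Baf53a) and -0.11 to -0.016 (mean of 4). Against the flanks they were -0.40 to -0.12, -0.15 to 0.048, -0.51 to -0.036 and 0.18 to 0.21. With fewer libraries to share a peak, losses ranged over 52 to 227, 1 to 16, 56 to 219 and 17 to 111, and gains over 5 to 81, 0 to 9, 6 to 90 and 18 to 117. Bins called ranged over 0 to 3 for Brg1 and stayed at 0 elsewhere.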

Other observations

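The share of cluster peaks that ranked among the top 10% of their list by score was lowest in the 4 tamoxifen libraries. It was 10.4% and 10.7% after Brg1 deletion (28 and 13 peaks), against 12.1% and 15.6% in ethanol. It was 10.3% and 9.84% after Baf53a deletion (31 and 30 peaks), against 14.97% and 13.6%. By definition 10% of a whole list ranks there, so the tamoxifen libraries lay near that share and all others above it. The other 10 libraries, all wild-type, lay between 13.5% and 18.5%, so that no library outside the tamoxifen groups was as low. This was noticed after the values were seen and was not tested, and tamoxifen, Cre activity and the deletions cannot be told apart in it. Median score percentiles of cluster peaks showed no such order (48.4 and 52.8 after Brg1 deletion, 53.8 and 46.0 after Baf53a deletion).

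Single-library regions took an uneven share of the lists. Of the cluster regions a library detected, 7.52% to 29.7% were found in that library alone (median 14.9%), against 7.40% to 19.3% (median 12.2%) over all regions.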
